A study of Mus musculus with 40 samples.

Results

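This account covers 9 genes of liver sterol handling that stand on or beside the liver X receptor (LXR) pathway: the receptor genes Nr1h3 and Nr1h2, the sterol exporters Abcg5, Abcg8, Abca1 and Abcg1, and the target or partner genes Mylip, Lpcat3 and Soat2. They were taken from the table of read counts by their symbols, and all 9 were among its 32544 gene rows and among the 12616 genes with enough reads to be tested. RNA came from the livers of germ-free male C57BL/6 mice at postnatal day 64 and was sequenced after library preparation with a TruSeq RNA kit, per the labels. Mice ate a Western or a control diet and had 6 weeks of delta-valerobetaine (VB), a betaine that gut bacteria make, or of vehicle. The 4 groups of 5 mice each are called Western VB, Western vehicle, control VB and control vehicle mice. All mice, vehicle ones included, lacked a microbiota. The dose, its route and the composition of the diets are not given in the labels.

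LXR alpha (Nr1h3) and LXR beta (Nr1h2) are nuclear receptors that bind oxysterols, which are oxidised forms of cholesterol, and act on DNA as partners of retinoid X receptors. Their targets move sterol out of cells. ABCG5 and ABCG8 form a single transporter that exports cholesterol and plant sterols from hepatocytes into bile, ABCA1 loads cholesterol and phospholipid onto apolipoprotein A-I, and ABCG1 moves sterol towards high-density lipoprotein, mainly in macrophages and endothelium. MYLIP, also called IDOL, marks lipoprotein receptors for degradation, and LPCAT3 puts polyunsaturated fatty acids into membrane phospholipids. SOAT2 esterifies cholesterol for storage and for lipoproteins and is not itself regarded as a main LXR target.

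Abcg5 and Abcg8 lie head to head on chromosome 17, and the stretch between their starts is shown because both genes are read from it in opposite directions. In GRCm38, Abcg5 occupies chr17:84658234-84683011 on the minus strand and Abcg8 occupies chr17:84676302-84700333 on the plus strand. RefSeq gives Abcg8 a start at 84683121, which lies 110 bases from that of Abcg5, and another at 84676302, within the span of Abcg5. The 109 bases between the nearer starts, chr17:84683012-84683120, are given below on the plus strand from RefSeq, build GRCm38.p6, with capitals marking 2 copies of the letters AGATAA read on the opposite strand, the core letters of a GATA factor site.
Abcg5-Abcg8: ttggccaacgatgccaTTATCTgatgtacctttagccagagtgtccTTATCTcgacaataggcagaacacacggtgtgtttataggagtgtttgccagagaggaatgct
Among 32851 RefSeq mouse promoters, 3.98% hold at least 1 exact copy of AGATAA on either strand in a window of 109 bases, and 0.186% hold at least 2. These letters were chosen after the stretch was read, so the shares describe it and test nothing. An LXR half-site pair was searched as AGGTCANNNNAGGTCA on both strands with up to 3 mismatches, and 7 of the 9 genes had a promoter entry of 300 bases, from 250 before to 50 after the start. One match was found, in Abca1, while 21.9% of all promoters hold such a match. A second arrangement, AGGTCANAGGTCA with up to 2 mismatches, is in 3.86% of promoters and in none of these genes. A match, or the lack of one, describes only the letters of these windows. The 250 bases upstream of Abca1, chr4:53159896-53160145 on the minus strand, are shown with the match in capitals, 67 to 52 bases before the start.
Abca1 upstream: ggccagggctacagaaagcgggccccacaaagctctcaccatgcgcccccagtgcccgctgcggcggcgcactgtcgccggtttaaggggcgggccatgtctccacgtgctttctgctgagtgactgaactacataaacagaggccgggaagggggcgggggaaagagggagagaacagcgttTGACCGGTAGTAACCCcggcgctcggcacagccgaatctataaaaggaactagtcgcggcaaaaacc

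Depth was similar across mice, with 16315342 to 24566686 reads in genes per mouse. Hepatocyte markers were high everywhere, with Alb at 12039 to 26048 CPM, reads of a gene scaled to a common library size, while the intestinal regulator Cdx2 had no read in any mouse. Western vehicle mouse 4 stood apart, with the largest mitochondrial share of reads (4.62%) and the lowest scaling factor (0.823). A score for the circadian clock, made from 20 clock genes by principal components and given in SD units, averaged 0.242 in Western VB, 1.29 in Western vehicle, -0.231 in control VB and -1.30 in control vehicle mice. It overlapped between the diets in VB mice (-0.214 to 0.724 on the Western against -0.585 to 0.0494 on the control diet) and not in vehicle mice (1.15 to 1.496 on the Western against -1.79 to -0.807 on the control diet).

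The 9 genes covered a wide range of abundance. Per kilobase of exon, which allows genes to be compared, Abcg5 stood highest in Western mice at 50.5 ± 14.6 CPM per kilobase with VB and 44.0 ± 10.2 with vehicle (mean ± SD, n = 5). In control mice Nr1h3 stood highest, at 40.5 ± 2.95 CPM per kilobase with VB and 39.5 ± 2.80 with vehicle, ahead of Lpcat3 at 25.9 ± 2.76 and 27.3 ± 4.23. In Western mice Nr1h3 and Abcg5 were within their spread of one another. Abcg8, Soat2 and Abca1 filled the middle of the order, with Abcg8 at 30.7 ± 8.84 CPM per kilobase in Western VB mice and 11.4 ± 1.37 in control VB mice, close there to Soat2 at 11.2 ± 1.61. Mylip was near the bottom, between 1.77 ± 0.325 and 2.36 ± 0.242 CPM per kilobase, and Abcg1 was lowest, between 0.309 ± 0.0808 and 0.516 ± 0.102. Abcg1 rested on 29 to 118 reads per mouse, the fewest of the 9 genes.

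**Figure D1:**
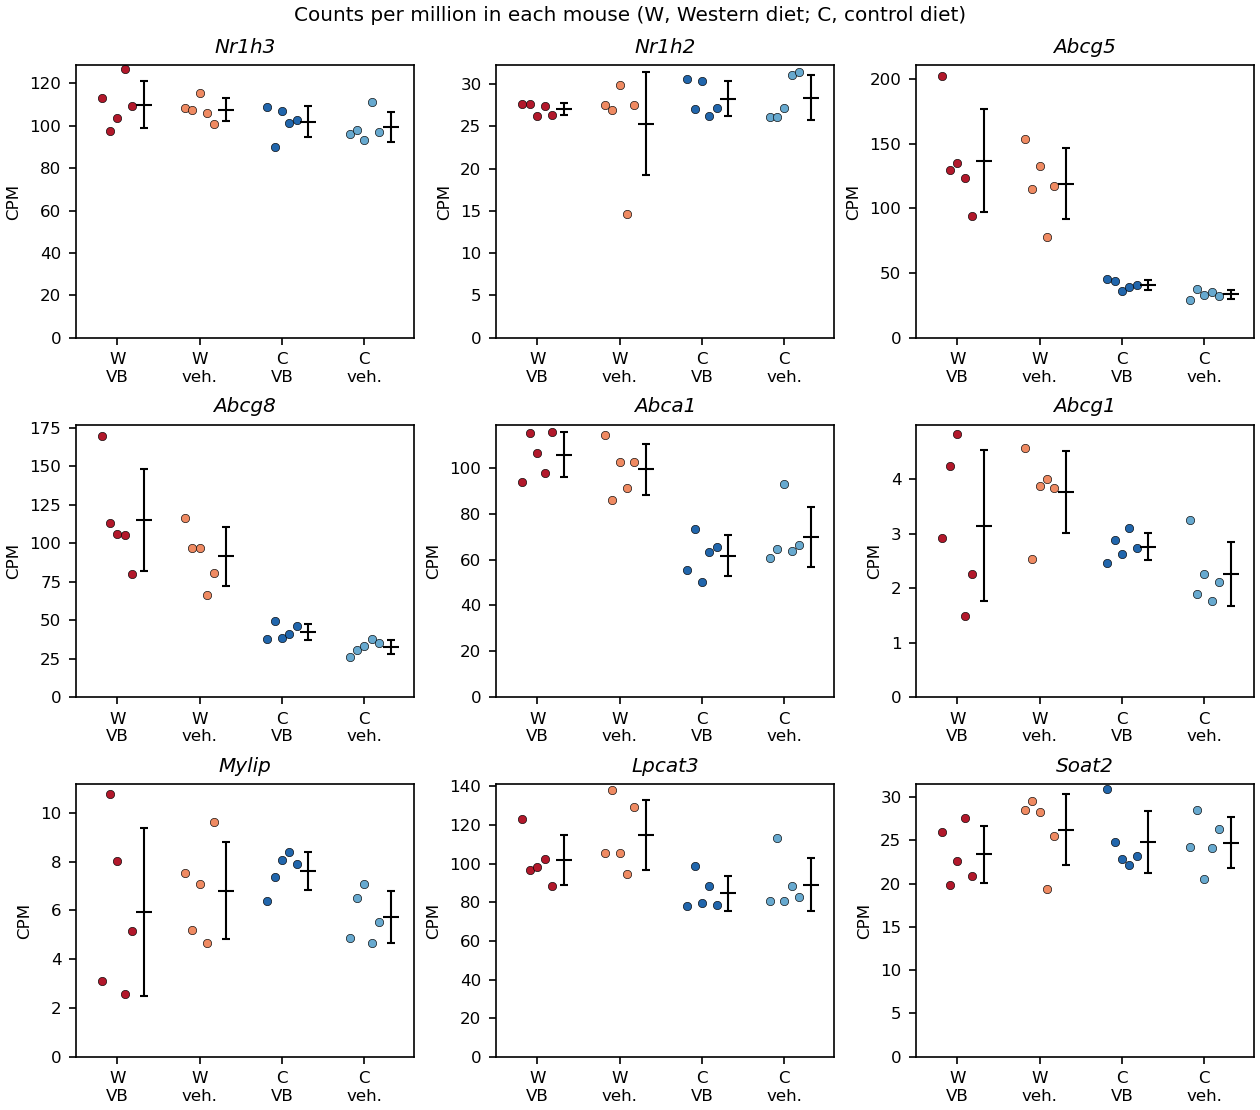
CPM of each of the 9 genes in every mouse (1 point per mouse, 5 per group), with the mean and SD beside the points; W is the Western and C the control diet, and every axis starts at 0. Abcg5, Abcg8 and Abca1 sit higher in both Western groups, while the points of Nr1h3, Nr1h2 and Soat2 lie at like heights in all 4 groups apart from 1 low Nr1h2 value in a Western vehicle mouse.

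Abcg5, Abcg8 and Abca1 were higher on the Western than on the control diet with either treatment. In VB mice these 3 of the 9 genes were called higher by edgeR's quasi-likelihood test at an adjusted p under 0.05, and none was called lower, while 6.44% of all tested genes were called and 3.23% were called higher. In vehicle mice 5 were higher on the Western diet, Abcg5, Abcg8, Abca1, Abcg1 and Lpcat3, and none was lower, while 16.5% of all genes were called and 8.92% higher. The median log2 change of the 9 genes was 0.19 in VB mice and 0.36 in vehicle mice, against 0.002 and 0.019 over all tested genes. For VB, 0 of the 9 genes were called on either diet. Among all genes, 7.19% were called for VB on the Western and 0.151% on the control diet. In bulk liver, fewer cells of a type and less RNA per cell cannot be told apart. The p-values weigh each difference against a spread between mice that the 4 groups share in the fit.

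**Figure D2:**
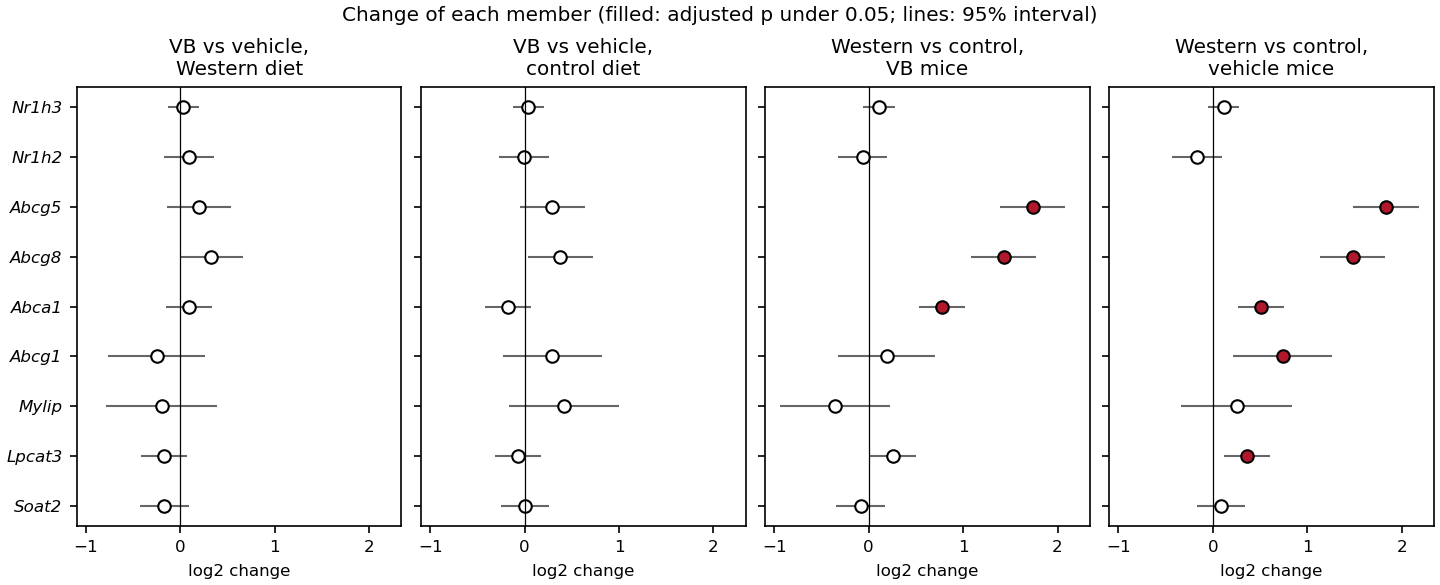
Log2 change of each gene in the 4 comparisons, with its 95% interval as a line; filled points have an adjusted p under 0.05. The VB panels hold no filled point, the panel for diet in VB mice holds 3 and the panel for diet in vehicle mice holds 5.

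Neither receptor gene was called in any comparison. Nr1h3, at chr2:91184061-91202834 on the minus strand, had 113, 97.3, 103, 127 and 109 CPM in Western VB mice and 109, 107, 116, 106 and 101 in Western vehicle mice. It had 109, 89.8, 107, 101 and 103 CPM in control VB mice and 96.3, 98.2, 93.3, 111 and 97.1 in control vehicle mice. All 4 groups overlap, and the highest value of the control vehicle mice, in mouse 4, lies apart from the other 4. The Western against control difference was 0.11 (SE 0.08) on the log2 scale in VB mice and 0.12 (SE 0.08) in vehicle mice, with adjusted p = 0.447 and 0.366. Their 95% intervals ran from -0.056 to 0.27 and from -0.048 to 0.28. For VB the difference was 0.031 (SE 0.08) on the Western diet and 0.038 (SE 0.08) on the control diet, with intervals from -0.13 to 0.20 and from -0.13 to 0.20. Only transcripts were measured, not the protein or the activity of the receptor.

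Nr1h2, at chr7:44549616-44553951 on the minus strand, was the less abundant receptor gene. It had 27.6, 27.6, 26.3, 27.4 and 26.4 CPM in Western VB mice and 27.5, 27.0, 29.9, 14.6 and 27.5 in Western vehicle mice. Control VB mice had 30.6, 27.0, 30.4, 26.2 and 27.2 CPM, and control vehicle mice had 26.1, 26.1, 27.2, 31.0 and 31.4. A single value departs from the rest, that of Western vehicle mouse 4, the mouse with the largest mitochondrial share. The Western against control difference in VB mice was -0.063 (SE 0.13) (adjusted p = 0.817). In vehicle mice it was -0.16 (SE 0.13) (adjusted p = 0.442) and -0.034 without Western vehicle mouse 4. On the Western diet the VB difference of 0.094 (SE 0.13) became -0.043 without this mouse, and on the control diet the difference was -0.0055 (SE 0.13).

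Abcg5 had the largest change of the 9. It had 202, 129.8, 135, 123 and 94.2 CPM in Western VB mice and 45.7, 43.8, 36.0, 39.3 and 40.8 CPM in control VB mice. With vehicle it had 153, 115, 133, 78.0 and 117 CPM in Western mice and 28.9, 37.7, 33.0, 35.2 and 32.7 CPM in control mice. In both treatments every Western mouse lay above every control mouse, and the Western mice varied more, with SDs of 39.7 and 27.8 CPM against 3.81 and 3.26. Abcg5 was 3.33-fold higher on the Western diet in VB mice, a log2 change of 1.74 (SE 0.17) (adjusted p = 5.15e-07), and 3.56-fold higher in vehicle mice, a log2 change of 1.83 (SE 0.17) (adjusted p = 1.2e-07). By p it stood in place 18 of all tested genes in VB mice and in place 31 in vehicle mice. Among all genes, 4.95% were above the control diet in every Western mouse in VB mice and 6.45% in vehicle mice.

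Abcg8, the partner subunit, followed the same order of groups. It had 169.8, 113, 106, 105 and 80.0 CPM in Western VB mice and 37.7, 49.4, 38.4, 41.1 and 46.5 CPM in control VB mice. The vehicle mice had 117, 97.1, 96.8, 66.2 and 80.8 CPM on the Western diet and 26.2, 30.8, 33.4, 38.2 and 35.0 CPM on the control diet. The diets did not overlap in either treatment, as for Abcg5, and Western VB mouse 1 had the highest value of both genes. The log2 change with diet was 1.43 (SE 0.17) in VB mice (adjusted p = 6.44e-06) and 1.48 (SE 0.17) in vehicle mice (adjusted p = 1.78e-06), which are 2.70-fold and 2.80-fold. Leaving out Western vehicle mouse 4, the lowest of its group for both genes, the changes in vehicle mice were 1.94 for Abcg5 and 1.57 for Abcg8.

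Whether diet moved both subunits by the same factor was tested with the ratio of Abcg5 to Abcg8 reads within each mouse, a measure chosen after the data were seen. It averaged 1.19 ± 0.0482 in Western VB mice and 0.975 ± 0.138 in control VB mice, and 1.30 ± 0.118 in Western vehicle mice and 1.03 ± 0.126 in control vehicle mice (SD, n = 5). A single control mouse in each treatment reached into the Western range, VB mouse 1 at 1.21 and vehicle mouse 2 at 1.22. The log2 difference between diets was 0.30 in VB mice and 0.33 in vehicle mice, with 2-sided exact permutation p = 0.0397 and 0.0238, where the smallest possible is 0.00794. Adjusted over the 4 comparisons of this ratio, each was 0.0794, above the threshold. For VB the log2 difference was -0.12 on the Western diet and -0.087 on the control diet, with adjusted exact permutation p = 0.106 and 0.444. Exons of these genes share 82 bases on opposite strands, 3.02% of the exonic length of Abcg5 and 2.19% of that of Abcg8, and whether the counting used strand is not given in the sources used here.

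**Figure D3:**
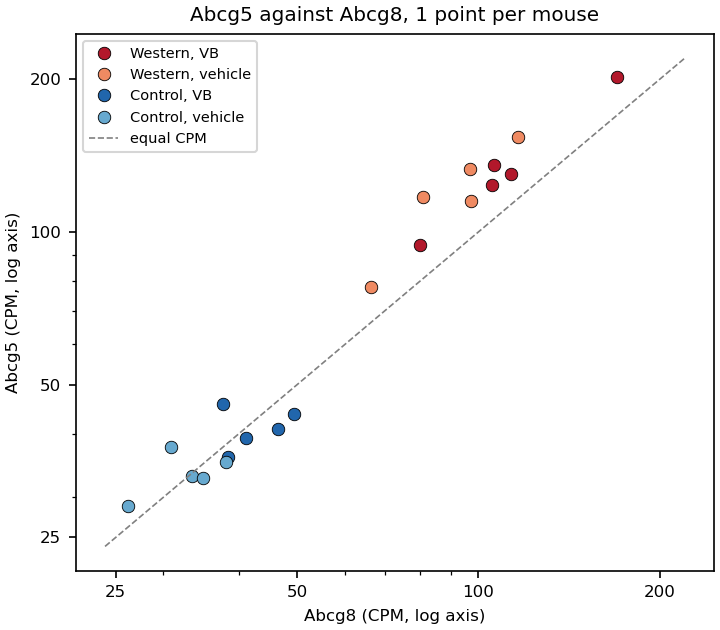
Abcg5 against Abcg8 in CPM on log axes, 1 point per mouse, with the dashed line where both are equal. The 10 Western mice lie above the line and apart from the 10 control mice, which lie on both sides of it.

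Across the 20 mice, log2 CPM of Abcg5 went with that of Abcg8 at r = 0.98, more closely than with any other tested gene, and next came Adam11 (0.93) and Carhsp1 (0.91). Both diets enter these values, and all points share the scaling of their libraries. After the group means were taken out, the genes most like Abcg5 over the 20 mice were Sdc1 (0.89), Enpp1 (0.88) and Abcg8 (0.87). For Abcg8 they were Abcg5, Ttyh2 (0.83) and Slc6a12 (0.82). Adipocyte marker sums also moved with diet, at 9.56 to 79.4 CPM in Western VB against 5.71 to 9.46 in control VB mice, and at 41.1 to 287 in Western vehicle against 6.80 to 10.2 in control vehicle mice. In single mice Cfd ranged from 0.0893 to 265 CPM and Fabp4, a gene also of endothelium and macrophages, from 4.47 to 35.1 CPM, while Lep was at 0 in 18 of 20 mice and Adipoq in 12. The enterocyte sums, nearly all Fabp2, were 114 to 233 CPM in Western VB against 62.9 to 94.1 in control VB mice, and 152 to 310.3 in Western vehicle against 63.1 to 89.3 in control vehicle mice. Vil1 and Sis had at most 3 reads in any mouse, Lct was at 0 in 19 mice, and the part of either list in the exporter changes was not tested.

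Abca1, the exporter that feeds high-density lipoprotein, was also higher on the Western diet. At chr4:53030787-53159895 on the minus strand, it had 94.0, 115, 106, 97.9 and 115 CPM in Western VB mice and 55.5, 73.4, 50.4, 63.2 and 65.5 in control VB mice. The vehicle mice had 114, 85.9, 103, 91.4 and 102 CPM on the Western diet and 60.7, 64.8, 92.9, 63.6 and 66.5 on the control diet. The diets are apart in VB mice, and in vehicle mice they overlap through control mouse 3 alone. The log2 change was 0.78 (SE 0.12) in VB mice (adjusted p = 0.000207) and 0.51 (SE 0.12) in vehicle mice (adjusted p = 0.00416), or 0.64 without control vehicle mouse 3. The difference between these diet changes, 0.27 (SE 0.17), did not pass the test (adjusted p = 0.39), and its interval ran from -0.077 to 0.61. The genes most like Abca1 across the 20 mice were Polr1e (0.85), Acot11 (0.84) and Litaf (0.84), and within groups Abca1 went with Abcg5 at r = 0.075.

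Abcg1, at chr17:31057675-31117988 on the plus strand, was called in vehicle mice, close to the threshold. It had 2.92, 4.24, 4.83, 1.49 and 2.26 CPM in Western VB mice and 2.46, 2.88, 2.63, 3.11 and 2.74 in control VB mice, with 4.58, 2.54, 3.87, 4.01 and 3.84 in Western vehicle mice and 3.25, 1.89, 2.26, 1.77 and 2.11 in control vehicle mice. The groups overlap in both treatments, and the Western VB mice spanned the whole range of the other groups and beyond. The diet difference in VB mice was 0.19 (SE 0.25) (adjusted p = 0.687). In vehicle mice it was 0.74 (SE 0.25) (adjusted p = 0.0478), and it missed the threshold in 15 of the 20 fits that left out 1 mouse (adjusted p up to 0.113). The difference between treatments was -0.55 (SE 0.35) (adjusted p = 0.412), so a diet change limited to vehicle mice was not shown. Within groups, the genes most like Abcg1 over the 20 mice were Epcam (0.84), Cd24a (0.81) and Hspg2 (0.79). Epcam and Cd24a are genes of bile duct epithelium, and the sum of its 6 markers, Epcam among them, went with Abcg1 at r = 0.55 within groups. The same value was 0.60 for sinusoidal endothelial, 0.51 for stellate and 0.39 for Kupffer cell markers, Kupffer cells being the resident macrophages of liver. In the bile duct list Spp1 was highest, at 14.2 to 65.5 CPM in single mice. Epcam was at 0.103 to 1.65 CPM, with at most 38 reads. The sum of 8 Kupffer cell markers ranged from 80.7 to 179.9 CPM in Western VB, 64.4 to 291 in Western vehicle, 121 to 164 in control VB and 111 to 149 in control vehicle mice. The bile duct sum ranged from 23.5 to 44.4 CPM in Western VB, 31.6 to 73.0 in Western vehicle, 41.5 to 50.1 in control VB and 41.5 to 63.6 in control vehicle mice, and the part of any of these cell types in the Abcg1 values was not tested.

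Lpcat3, at chr6:124663027-124704418 on the plus strand, moved less. It had 123, 96.5, 98.4, 102 and 88.3 CPM in Western VB mice and 78.0, 98.9, 79.8, 88.4 and 78.4 in control VB mice. Vehicle mice had 105, 138, 105, 94.9 and 129 CPM on the Western diet and 80.7, 113, 80.7, 88.2 and 82.6 on the control diet. Both pairs of groups overlap, in vehicle mice through control mouse 2. The diet difference was 0.26 (SE 0.12) in VB mice (adjusted p = 0.192). In vehicle mice the change was 0.36 (SE 0.12) (adjusted p = 0.036) and missed the threshold in 7 of the 20 fits without 1 mouse (adjusted p up to 0.143). Its nearest genes across the 20 mice were Scd1 (0.85), Gusb (0.84) and Fbp1 (0.84), and within groups Nqo2 (0.83), Shmt1 (0.83) and Scd1 (0.82). Scd1 encodes the desaturase that makes oleate and is itself a known LXR target. Exons of Lpcat3 share 334 bases, 10.2% of their length, with Emg1 on the opposite strand, and reads from there could belong to either.

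Mylip, at chr13:45389742-45412022 on the plus strand, varied more among Western VB mice than with either factor. Those mice had 3.10, 10.8, 8.02, 2.57 and 5.14 CPM, and Western vehicle mice had 7.52, 5.18, 7.08, 4.65 and 9.61. Control VB mice had 6.38, 7.37, 8.08, 8.37 and 7.91 CPM and control vehicle mice 4.86, 6.51, 7.09, 4.66 and 5.54. All groups overlap, with 2 low and 2 high values among the Western VB mice. Neither diet nor VB gave a called change, the largest being 0.41 (SE 0.28) for VB on the control diet (adjusted p = 0.631), and the difference of the VB effects was -0.61 (SE 0.40) (adjusted p = 0.416). In an edgeR fit of the control diet groups alone, the VB change was 0.41 (SE 0.14) (adjusted p = 0.153).

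The level of Mylip went with markers of liver endothelium. The summed CPM of 7 sinusoidal endothelial markers was 64.3, 162, 165, 78.7 and 118 in Western VB mice, in the order of mice 1 to 5 as for Mylip above, so that the low Mylip values belong to the mice with the lowest sums. Ranges of that sum were 95.7 to 196 CPM in Western vehicle, 116 to 150.3 in control VB and 116 to 150.4 in control vehicle mice. Over the 20 mice, r between log2 CPM of Mylip and the log2 sum was 0.89, and it was 0.91 after the group means were taken out. For stellate cell markers these values were 0.86 and 0.89, and the sum of those 7 markers ranged from 31.8 to 101 CPM in Western VB, 55.2 to 82.4 in Western vehicle, 67.2 to 80.3 in control VB and 55.3 to 97.3 in control vehicle mice. They were 0.67 and 0.69 for Kupffer cell, 0.29 and 0.26 for bile duct and -0.17 and -0.61 for hepatocyte markers. The part of any of these cell types in the Mylip values was not tested. Its nearest genes were Clec14a (0.90), Adgrl4 (0.90) and F8 (0.89), and within groups Adgrl4 (0.95), Esam (0.95) and Cyp4b1 (0.94). Clec14a, Adgrl4 and Esam encode endothelial surface proteins, and liver endothelium is the main source of coagulation factor VIII, the product of F8. Abcg5 gave r = -0.24 with the endothelial sum within groups.

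**Figure D4:**
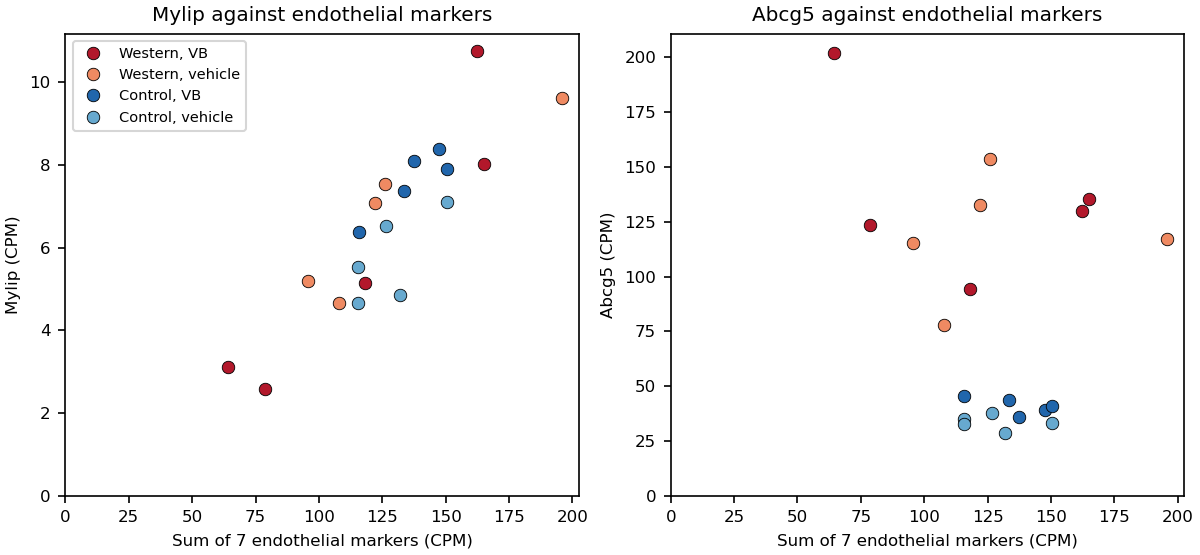
Mylip and Abcg5 in CPM against the summed CPM of 7 sinusoidal endothelial markers, 1 point per mouse. Mylip climbs with the sum in mice of all 4 groups, while Abcg5 is higher in every Western mouse than in any control mouse, whatever the sum.

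Soat2, at chr15:102150526-102163469 on the plus strand, was called in no comparison. It had 26.0, 19.8, 22.6, 27.5 and 20.9 CPM in Western VB mice and 28.5, 29.5, 28.2, 19.3 and 25.5 in Western vehicle mice. Its values were 30.9, 24.8, 22.9, 22.2 and 23.1 CPM in control VB mice and 24.2, 28.5, 20.6, 24.1 and 26.3 in control vehicle mice. The groups overlap throughout. The Western against control difference was -0.086 (SE 0.12) in VB mice and 0.088 (SE 0.12) in vehicle mice, with 95% intervals from -0.34 to 0.17 and from -0.17 to 0.34. Acadvl (0.81), Pink1 (0.81) and Gas1 (0.77) were the genes most like it across the 20 mice, and within groups Brd2 (0.83), Pink1 (0.82) and Acadvl (0.81). Acadvl and Pink1 encode proteins of mitochondria.

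None of the 9 genes was called for VB on either diet in edgeR or in DESeq2, and none had VB and vehicle mice apart, against 5.56% of all genes on the Western and 3.88% on the control diet. On the Western diet 7.19% of all genes were called and 0 of the 9 had an unadjusted p under 0.05. On the control diet 0.151% of all genes were called, and 1 of the 9, Abcg8, had an unadjusted p under 0.05. Abcg8 averaged 115 ± 33.1 CPM in Western VB and 91.5 ± 18.96 in Western vehicle mice, and 42.6 ± 5.12 in control VB and 32.7 ± 4.49 in control vehicle mice (SD, n = 5). Its log2 difference with VB was 0.33 (SE 0.16) on the Western diet (adjusted p = 0.262, interval from -0.0086 to 0.66) and 0.38 (SE 0.16) on the control diet (adjusted p = 0.41, interval from 0.039 to 0.72). For Abcg5 the values were 0.20 (SE 0.16) (adjusted p = 0.564) and 0.30 (SE 0.17) (adjusted p = 0.544). In edgeR fits of the compared groups alone, the SEs on the control diet were 0.10 for Abcg8 and 0.082 for Abcg5 (adjusted p = 0.0906 and 0.0983). On the Western diet they were 0.19 and 0.20 (adjusted p = 0.443 and 0.723). The mean of the VB effects on both diets, a comparison added after the data were seen, was 0.35 (SE 0.12) for Abcg8 (adjusted p = 0.227, interval from 0.11 to 0.59) and 0.25 (SE 0.12) for Abcg5 (adjusted p = 0.473, interval from 0.0059 to 0.49). There 0 of the 9 genes were called against 0.159% of all genes, and 2 had an unadjusted p under 0.05.

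The difference of the VB effects between diets was called for 0 of the 9 genes and for 7.64% of all genes, with 0 of the 9 at an unadjusted p under 0.05. Its values for the called exporters were -0.10 (SE 0.23) for Abcg5, -0.053 (SE 0.23) for Abcg8 and 0.27 (SE 0.17) for Abca1. The intervals for Abcg5 and Abcg8 ran from -0.58 to 0.38 and from -0.53 to 0.43, short of the size of their diet changes. That for Abca1 ran from -0.077 to 0.61, past its diet change of 0.51 in vehicle mice. DESeq2 also called 0 of the 9 genes in this comparison and in the mean of the VB effects.

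The clock score was set beside the diet changes because it splits the vehicle groups. It also splits VB from vehicle mice on each diet, so VB and the score cannot be told apart, also for the genes given below. With the score as a covariate, edgeR called 5 genes in all for VB on the Western diet, against 907 without it. The counts were 0 against 19 for VB on the control diet and 1 against 964 for the difference of the VB effects. With the score as a covariate, 0 of the 9 genes were called between diets in vehicle mice, where the score and the diet cannot be told apart, and 28 genes were called in all. The values for Abcg5, Abcg8 and Abca1 were then 0.77, 0.34 and 0.53 on the log2 scale (adjusted p = 0.919, 0.991 and 0.956). Abcg1 was at 1.79 (adjusted p = 0.708) and Mylip at 1.46 (adjusted p = 0.913), both larger than without the score, and Lpcat3 turned to -0.20 (adjusted p = 0.991). In VB mice, whose scores overlap between the diets, the same 3 exporters were called with the covariate. There Abcg5 was at 1.52 (adjusted p = 7.94e-06), Abcg8 at 1.20 (adjusted p = 0.00011) and Abca1 at 0.78 (adjusted p = 0.00119). After the group means were taken out, the score went with Abcg8 at r = 0.51, with Abcg5 at 0.46 and with Abca1 at -0.038 over the 20 mice.

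**Figure D5:**
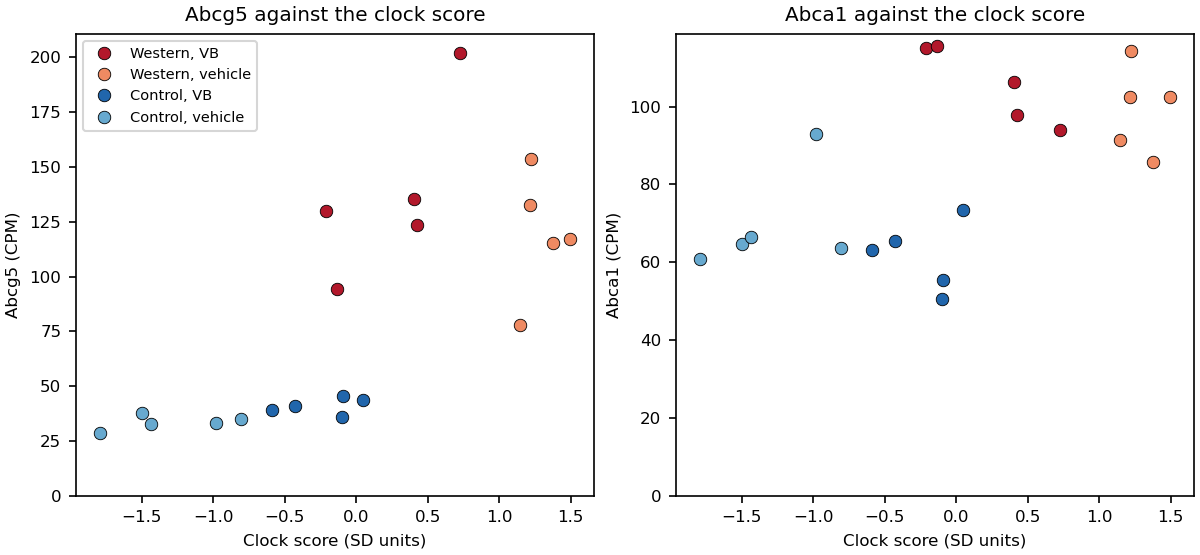
Abcg5 and Abca1 in CPM against the clock score in SD units, 1 point per mouse. Western vehicle and control vehicle mice lie at opposite ends of the score, while Western VB mice lie above control VB mice in both genes over a range of scores that the groups partly share.

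Other genes of the pathway did not follow one direction. Among all tested genes, 3.23% were called higher on the Western diet in VB mice and 8.92% in vehicle mice. In either direction, 6.44% were called in VB mice and 16.5% in vehicle mice. Of 17 further LXR-regulated lipid genes, 4 rose and 2 fell on the Western diet in VB mice, and 6 rose and 2 fell in vehicle mice, with median log2 changes of 0.30 and 0.36. In VB mice these included Srebf1, the lipogenic regulator that LXR induces, at 2.00 (adjusted p = 0.0024), the lipase gene Lpl at 1.27 and the phospholipid transfer protein gene Pltp at -2.11. In vehicle mice the lipoprotein genes Apoc2 (1.37) and Apoe (0.71), the ubiquitin ligase gene Rnf145 (0.76) and the phosphodiesterase gene Smpdl3a (0.42) were higher with adjusted p from 3.75e-06 to 0.00345. There Fasn, the fatty acid synthase, was at -1.92 and Pltp at -1.54. Srebf1 in vehicle mice was at 0.66 (adjusted p = 0.235), and the difference between treatments, 1.34, did not pass (adjusted p = 0.121). VB on the Western diet raised 2 of the 17, Mlxipl (0.58) and Lpl (0.65), and lowered 2, Rnf145 (-0.44) and Smpdl3a (-0.38), while 7.19% of all genes were called. On the control diet edgeR called 0 of the 17.

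Of 12 tested genes of retinoid X receptors and co-regulators, 1 was called higher on the Western diet in VB mice and 1 in vehicle mice. Among all genes, 3.23% and 8.92% were called higher. Rxra, the main retinoid X receptor gene of liver, was the 1 called in vehicle mice (0.36, edgeR adjusted p = 0.0449). In VB mice its Western against control difference was 0.0084 (edgeR adjusted p = 0.98), and the gene called there was another. Of 5 tested genes that make or remove oxysterols, 1 was called higher and 2 lower on the Western diet in VB mice. In vehicle mice 0 were called higher and 2 lower, while 6.44% of all genes were called in VB mice and 16.5% in vehicle mice. Cyp27a1, whose enzyme makes 27-hydroxycholesterol, fell on the Western diet, with log2 changes of -0.33 in VB mice and -0.54 in vehicle mice. Cyp7b1, whose enzyme hydroxylates oxysterols for bile acid synthesis, was higher in Western VB mice than in Western vehicle mice (1.30, adjusted p = 0.0278) and than in control VB mice (1.27, adjusted p = 0.0346).

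Of 17 tested genes of sterol transport and esterification, 0 rose and 3 fell on the Western diet in VB mice, and 5 rose and 3 fell in vehicle mice, while 6.44% of all genes were called in either direction in VB mice and 16.5% in vehicle mice. The cholesteryl ester hydrolase gene Nceh1 was at 1.39 in vehicle mice, and VB on the Western diet lowered it (-1.18, adjusted p = 0.000919). Stard4, a sterol carrier, fell in VB mice (-0.83) and in vehicle mice (-1.33). Abcb11, the bile salt export pump, was lower on the Western diet in vehicle mice (-0.70), and VB on the Western diet raised it (0.58, adjusted p = 0.0146). SREBP2 targets are genes of sterol synthesis and uptake that cholesterol holds down. Of 9 such genes, 7 fell on the Western diet in VB mice and 9 in vehicle mice, with median log2 changes of -1.52 and -2.84. VB on the Western diet raised 4 of the 9 and lowered 0, with a median of 0.64, while 7.19% of all genes were called. For VB on the control diet 0 were called, against 0.151% of all genes. The difference of the VB effects was called above 0 for 6 of the 9, while 7.64% of all genes were called.

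Vldlr, the gene of a lipoprotein receptor that MYLIP marks for degradation and that is low in liver, averaged 0.472 ± 0.273 CPM in Western VB, 2.46 ± 0.365 in Western vehicle, 2.06 ± 0.958 in control VB and 0.526 ± 0.517 in control vehicle mice. On the Western diet it fell in VB mice, with a log2 change of -2.07, and rose in vehicle mice, with 2.19. VB on the Western diet lowered it (-2.33, adjusted p = 0.00411), and the difference of the VB effects was -4.25 (adjusted p = 0.000586). Of 4 tested lysophospholipid acyltransferase genes beside Lpcat3, 0 were called in any of these comparisons.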

How the data were processed

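The authors deposited raw gene counts in 1 table with a column for each of 40 lanes, 2 lanes per mouse and 20 mice. The submitters' processing notes name GRCm38. Which aligner, counter, annotation and strand setting they used is not given in the sources used here. Lanes were summed: chi-square over its degrees of freedom came to 1.33 to 1.49 for the lanes of 1 mouse, against 10.3 or more for different mice of a group. A treatment label reads vehicle for 1 lane whose title, like that of its partner lane, reads VB, and this mouse was kept as VB.

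The analysis used R 4.3.3. Genes were kept by filterByExpr (minimum count 10, minimum total 15), scaled by TMM and fitted over all 4 groups with the robust quasi-likelihood model of edgeR 4.0.16. Calls needed a Benjamini-Hochberg adjusted p under 0.05 over the 12616 genes. CPM were computed on library sizes scaled by TMM, and log2 CPM for correlations used a prior count of 2. Alternatives were RLE scaling, DESeq2 1.42.0, no filter beyond 1 read, a fit of the compared groups alone, a replicate block, the clock score as a covariate, Mup genes left out of library sizes, and each mouse left out. The procedure was tested on simulated counts.

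The 9 genes and all lists were chosen with earlier results of these data known. Named genes are the 9, up to 4 called genes of smallest p per list and comparison, and the 3 genes most like each of the 9. Of the lists, values of single genes are given where they bear on sterol handling. Some genes of the lists are not reported here. Gene positions and lengths are from GENCODE M21 on GRCm38. A share of counts cannot show absolute amounts, since all values are relative to the other genes of a library.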

Additional observations from a re-analysis of the deposited data

Results flagged for a closer look

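In 4 of the 36 sets of 5 mice (9 genes in 4 groups), 1 mouse lay far from the other 4 by Dixon's criterion of 0.71 for the gap over the range, and chance flags about 1 set in 20. Nr1h2 was at 14.6 CPM in Western vehicle mouse 4, against 27.0 to 29.9 in the other 4 mice. That library also had the largest mitochondrial share and the lowest scaling factor of the 20, and their part in the value was not tested. The other 3 values were in control vehicle mice. Abca1 was at 92.9 CPM in mouse 3, against 60.7 to 66.5 in the others. Lpcat3 was at 113 CPM in mouse 2, against 80.7 to 88.2. Nr1h3 was at 111 CPM in mouse 4, against 93.3 to 98.2. Without mouse 2 the diet change of Lpcat3 in vehicle mice was 0.46 (edgeR adjusted p = 0.00814), and without mouse 3 that of Abca1 was 0.64 (edgeR adjusted p = 0.000307).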

How the results depend on the processing

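The counts of called genes were the same under all alternatives for the VB comparisons (0), the difference and the mean of the VB effects (0) and diet in VB mice (3). For diet in vehicle mice the count was 5, also in DESeq2 and with the replicate block. It was 4 with RLE scaling, in the fit of the compared groups alone and with Mup genes out, 3 with no filter on low counts and 0 with the clock score in the fit. It ranged from 3 to 5 when 1 mouse was left out, with 3 without Western VB mouse 2, Western vehicle mouse 5 or control vehicle mice 3, 4 or 5. Apart from the clock score, Abcg1 and Lpcat3 made these changes: Abcg1 had adjusted p = 0.0527 with RLE scaling, 0.0749 with no filter and 0.0542 with Mup genes out, and Lpcat3 had 0.0638 with no filter and 0.087 in the fit of the compared groups alone. The cause was not tested.

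Reversed signs concerned differences that were not called, apart from Lpcat3. Soat2 with VB on the control diet was -0.0016 with RLE scaling, -0.0017 in DESeq2 and -0.0033 with the replicate block, and the difference of VB effects for Nr1h3 was 0.00042 with RLE scaling and 0.00059 in DESeq2. With the clock score, Lpcat3 and Soat2 were at 0.049 and 0.016 for VB on the Western diet. For VB on the control diet Nr1h3, Abcg5, Abcg8 and Soat2 were at -0.068, -0.14, -0.087 and -0.20. For diet in vehicle mice Nr1h3, Lpcat3 and Soat2 were at -0.14, -0.20 and -0.39. For the difference of VB effects Nr1h3, Abcg5, Abcg8, Lpcat3 and Soat2 were at 0.20, 0.75, 0.86, 0.35 and 0.21.

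With 1 mouse left out, 38 of 1120 values changed sign, all of uncalled differences. For VB on the Western diet the ranges were Nr1h2 -0.043 to 0.16 and Nr1h3 -0.025 to 0.073. For VB on the control diet the ranges were Lpcat3 -0.13 to 0.029, Nr1h2 -0.035 to 0.034 and Soat2 -0.088 to 0.060. For diet in VB mice the ranges were Abcg1 -0.021 to 0.37 and Soat2 -0.15 to 0.0057. For the difference of VB effects the ranges were Abcg5 -0.28 to 0.011, Abcg8 -0.24 to 0.053, Nr1h2 -0.040 to 0.17 and Nr1h3 -0.063 to 0.033. For the mean of VB effects the ranges were Abca1 -0.079 to 0.019, Abcg1 -0.087 to 0.11, Mylip -0.049 to 0.20 and Nr1h2 -0.023 to 0.078.

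Mouse numbers were not taken to pair the mice: deviations of same-numbered mice correlated at -0.065 to 0.38, and 7 of 30 pairs were over 0.1. Among mice of the other groups, 10 of 20 mice correlated best with one of their own number, a hint from the data and not from the design. The replicate block left the count at 5 for diet in vehicle mice and changed no other count. Abcg1 has the fewest reads of the 9 genes, 29 to 118 per mouse.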

Other observations

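Within groups, members that share the pathway went together to unlike degrees over the 20 mice. After the group means were taken out, r of log2 CPM was 0.87 for Abcg5 and Abcg8, 0.53 for Abcg5 and Lpcat3, 0.63 for Abcg5 and Soat2 and 0.60 for Nr1h2 and Soat2. It was -0.52 for Nr1h3 and Abca1, -0.62 for Nr1h3 and Abcg1 and -0.66 for Nr1h3 and Mylip, which describes mice with more Nr1h3 and less of these 3 transcripts than their group. Within groups, r with the sinusoidal endothelial marker sum was -0.61 for Nr1h3, 0.48 for Abca1, 0.60 for Abcg1 and 0.91 for Mylip. In the same order it was -0.61, 0.43, 0.51 and 0.89 with the stellate sum. With the hepatocyte sum it was 0.40, -0.29, -0.35 and -0.61. The part of these cell types in the negative r of Nr1h3 was not tested. Abcg1 and Mylip, the pair of lowest level per kilobase, had r = 0.65. All values come from the same libraries, share their scaling and include Western vehicle mouse 4, and they were chosen after being seen.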
